A study of Homo sapiens with 4 samples.

Results

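The S100 genes encode small calcium-binding proteins with EF-hand motifs, and 10 of them were examined in HuH7 cells that had lost KDM6B and in wild-type HuH7 cells. The genes were S100A2, S100A4, S100A6, S100A8, S100A9, S100A10, S100A11, S100A14, S100A16 and S100P. All 10 were read by the platform, with 13 probe sets among the 54613 of the deposited table, and they are 10 of the 19775 genes that had a probe set with 1 gene symbol. They were picked because of their differences between knockout and wild-type arrays. Those differences are therefore given here as a description, without p-values for these genes.

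HuH7 is a human liver cancer line of hepatocellular type. The study compared 2 arrays of HuH7 cells with genotype KDM6B knockout, made with CRISPR/Cas9, with 2 arrays of KDM6B wild-type HuH7 cells, on the log2 scale of the authors' values. KDM6B encodes a demethylase of histone H3 lysine 27, and the series concerns its loss in steatohepatitis-related liver cancer. The knockout cells were transfected with 1 guide vector and a Cas9 vector, selected with G418 and subcloned by limiting dilution, and the labels do not say which subclone each knockout array came from. Loss of KDM6B and a difference between subclones and the wild-type population cannot be told apart. The labels also do not say that the arrays of a group came from separate cultures, so the spread between them may be technical.

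S100 proteins mostly form dimers and, on binding calcium, expose a surface that docks to partner proteins such as annexins, myosin or ezrin. S100A8 and S100A9 pair as calprotectin, an abundant protein of neutrophils and monocytes that is also released and acts on the receptors TLR4 and RAGE. Most S100 genes lie in a cluster on chromosome 1, interrupted by the genes of the epidermal differentiation complex, while S100P lies on chromosome 4. In liver tumours S100 proteins are studied as markers of invasion and inflammation.

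Replicate arrays correlated at 0.994 in knockout and 0.992 in wild type over all probe sets, and arrays of different groups at 0.985 to 0.989. The 5 probe sets of KDM6B were lower in knockout by 0.21 to 0.40 on the log2 scale, with limma adjusted p from 0.23 to 0.61. A cut by Cas9 need not lower the transcript. Hepatocyte markers were bright in both groups. ALB (albumin) read 13.82 and 13.96 in knockout against 13.90 and 13.70 in wild type.

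The promoters of the genes with the largest differences are shown first, to let their sequences be set beside the expression values. They are the 250 bases before the RefSeq gene start (GRCh38.p14), 5′ to 3′ on the gene's own strand, with each CG dinucleotide in capitals. The S100A4 promoter is chr1:153545807-153546056 (minus strand), that of S100A6 is chr1:153535992-153536241 (minus), that of S100A9 is chr1:153357604-153357853 (plus), and that of S100A10 is chr1:151993860-151994109 (minus).
S100A4: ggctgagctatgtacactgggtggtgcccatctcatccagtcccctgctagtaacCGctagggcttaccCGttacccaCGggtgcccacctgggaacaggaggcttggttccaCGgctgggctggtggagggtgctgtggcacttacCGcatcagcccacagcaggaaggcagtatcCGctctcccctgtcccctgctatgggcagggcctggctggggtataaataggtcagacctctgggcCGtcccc
S100A6: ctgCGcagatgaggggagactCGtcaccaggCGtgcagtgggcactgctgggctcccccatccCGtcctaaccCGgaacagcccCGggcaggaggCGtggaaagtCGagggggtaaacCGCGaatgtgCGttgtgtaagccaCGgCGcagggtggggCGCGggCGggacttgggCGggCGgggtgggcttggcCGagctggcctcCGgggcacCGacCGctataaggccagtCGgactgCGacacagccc
S100A10: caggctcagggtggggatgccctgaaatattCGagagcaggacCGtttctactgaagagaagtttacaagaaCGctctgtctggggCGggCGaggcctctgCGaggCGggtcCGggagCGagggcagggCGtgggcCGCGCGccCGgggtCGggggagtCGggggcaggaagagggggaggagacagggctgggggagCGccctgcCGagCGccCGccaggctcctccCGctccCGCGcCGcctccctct
S100A9: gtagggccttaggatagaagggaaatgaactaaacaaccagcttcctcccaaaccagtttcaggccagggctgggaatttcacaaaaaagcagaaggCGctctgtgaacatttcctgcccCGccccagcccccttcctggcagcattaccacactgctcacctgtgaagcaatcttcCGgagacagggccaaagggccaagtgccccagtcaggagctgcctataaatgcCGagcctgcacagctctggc

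The promoters of the 3 genes higher in knockout were not alike in CG content. S100A6 and S100A10 each had 24 CG dinucleotides, more than 76.3% of 35116 RefSeq promoters of this length. S100A4 had 7 and S100A9 had 4, below the median of 11. Among the other members S100A11 had 15, S100A14 and S100P had 4 each, and S100A8, S100A2 and S100A16 had 1 to 6 over their 2 or 3 annotated starts, whose windows overlap in S100A8.

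Both strands were searched for letters of factor motifs, and no match overlapped another. The C/EBP letters TTNCNNAA, held by 33.2% of all promoters, occurred in S100A9 from 173 bases before the start and in S100A6 from 120 bases before it. They also occurred in S100A11, S100P, S100A8 and 1 of 2 starts of S100A16. The AP-1 letters TGANTCA (6.57% of promoters) occurred only in S100A2, from 52 bases before 1 of its starts. An NF-kB-like pattern of 3 G, any 4 bases and 3 C (16.1%) occurred in S100A4, S100A6, S100A10, S100A2, S100A14 and S100A8. The letters TATAAA (10.7%), added to the search after the sequences were seen, began 31 bases before the start in S100A4, 29 in S100A9 and 28 in S100P. In S100A8 they began 29 bases before 1 of its 3 starts, and the same letters lie 126 bases before another.

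S100A4, also called metastasin, binds the heavy chain of nonmuscle myosin and is linked to cell motility. Its only probe set, 203186_s_at, read 8.13 and 8.28 in knockout against 6.62 and 6.33 in wild type. Both knockout arrays lay above both wild-type arrays. The log2 difference was 1.73 (SE 0.15), a 3.31-fold higher level in knockout, and it ranked 88 from the top among all probe sets. The suffix of this probe set marks a type that may match more than 1 transcript, and no other read S100A4.

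S100A6, or calcyclin, binds the ubiquitin ligase adaptor CACYBP and annexins. Probe set 217728_at read 9.30 and 9.13 in knockout against 7.78 and 7.58 in wild type, with no overlap. The difference was 1.54 (SE 0.12), or 2.90-fold. The second probe set, 228923_at, read 3.51 and 3.75 in knockout against 3.50 and 3.67 in wild type, a difference of 0.04 (SE 0.17). It was dim, lying below the 25th percentile of all probe sets on 1 array of each group. The mean of both probe sets gave S100A6 a difference of 0.79, against 1.54 from the brighter one.

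S100A10, known as p11, has lost calcium binding and forms a heterotetramer with annexin A2 at membranes. Its probe set 200872_at read 13.26 and 13.38 in knockout against 12.43 and 12.20 in wild type, a difference of 1.01 (SE 0.11) or 2.02-fold. Its other probe set, 238909_at, read 6.68 and 6.54 in knockout against 4.76 and 4.75 in wild type, a difference of 1.86 (SE 0.14) or 3.62-fold. Both probe sets were higher in knockout without overlap of the arrays, by unequal amounts. In wild type 238909_at lay below the median of all probe sets on each array (4.96 and 5.04).

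S100A11, or calgizzarin, is a partner of annexin A1. It read 10.07 and 9.99 in knockout against 9.19 and 9.10 in wild type, a difference of 0.89 (SE 0.10) or 1.85-fold. The 4 arrays fell into the 2 groups with little spread inside either.

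S100A14 and S100A16 are neighbours on chromosome 1 and are expressed in epithelia. S100A14 read 8.64 and 8.50 in knockout against 7.88 and 7.99 in wild type, a difference of 0.64 (SE 0.11). S100A16 read 8.88 and 8.86 in knockout against 8.12 and 8.36 in wild type, a difference of 0.63 (SE 0.12). In both genes the knockout arrays lay above the wild-type arrays. S100A16 was outside the calls of the fit over probe sets and inside those of the fit over genes, where 7 of the 10 S100 genes were called beside 7.07% of all genes.

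S100A9 went the other way. This calprotectin subunit read 5.38 and 5.25 in knockout against 7.25 and 7.04 in wild type. Both knockout arrays lay below both wild-type arrays, by a gap of 1.66. The difference was -1.83 (SE 0.14), a 3.56-fold lower level in knockout, and it ranked 72 from the bottom among all probe sets.

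S100A8, the other calprotectin subunit, did not show that difference. Probe set 202917_s_at read 4.19 and 4.34 in knockout against 4.31 and 4.36 in wild type, a difference of -0.07 (SE 0.16). Probe set 214370_at read 3.19 and 2.72 in knockout against 2.80 and 2.72 in wild type, a difference of 0.20 (SE 0.19), and it was dim on all 4 arrays. The groups overlapped on both, and the signs were opposite. Even 202917_s_at lay below the median of all probe sets on each array (4.96 to 5.05). A fall as large as that of S100A9 may not have been visible there.

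S100A2, a gene of squamous epithelium, and S100P, a gene first found in placenta whose protein binds ezrin, had overlapping groups too. S100A2 read 5.08 and 5.39 in knockout against 4.68 and 5.47 in wild type, and its wild-type SD of 0.56 was the largest of any S100 probe set described here. Its difference was 0.16 (SE 0.29). S100P read 12.25 and 12.18 in knockout against 12.13 and 12.21 in wild type, a difference of 0.05 (SE 0.08).

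**Figure D1:**
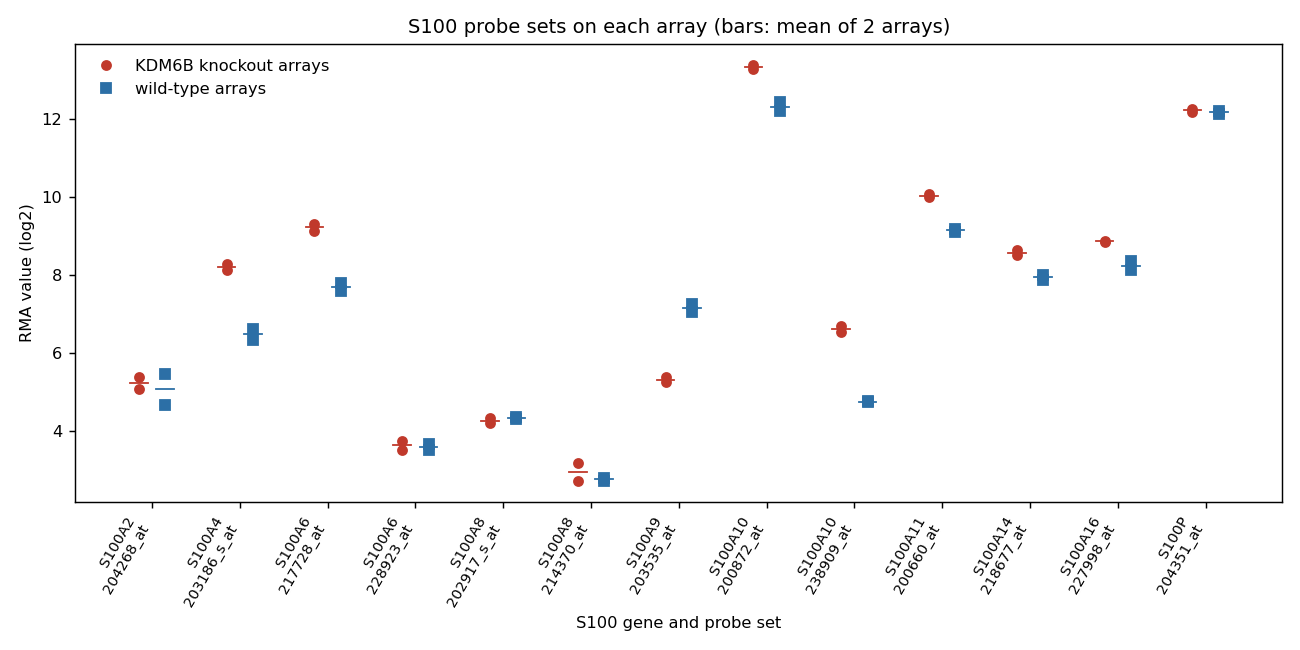
RMA values (log2) of the 13 probe sets of the 10 S100 genes on each array, with knockout arrays as red circles left of wild-type arrays as blue squares and the mean of 2 arrays as a bar. S100A4, both S100A10 probe sets and the brighter S100A6 probe set stand higher in knockout, S100A9 stands lower at 5.38 and 5.25 against 7.25 and 7.04, and S100P and S100A8 overlap.

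Set side by side, S100A4 and S100A6 were higher in knockout by 1.73 and 1.54, whereas S100A9 was lower by 1.83 and the S100A8 arrays of the groups overlapped. The split of the 4 genes into a higher pair and a lower pair thus held for S100A9 alone on the lower side. S100A8 read below the median of all probe sets on every array. Of the 13 probe sets, 7 were called by limma at an adjusted p under 0.05, 6 higher and 1 lower in knockout. Over all probe sets 2.91% were called, 1.27% higher and 1.63% lower. In 7 probe sets the knockout arrays all lay above the wild-type arrays and in 1 below, where 20.5% and 19.9% of all probe sets did so. The members were chosen on this contrast, so nothing is read from these counts. The median difference over the 13 was 0.63, beside 0.01 over all probe sets. Each of the 4 arrays was also left out in turn, which leaves 1 array in its group. The log2 differences then ranged from 1.58 to 1.87 for S100A4, 1.44 to 1.64 for the brighter S100A6 probe set and -1.93 to -1.73 for S100A9.

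Few calls were made in the rest of the family. Another 10 S100 genes were measured, of which 1 was called higher by limma, 0 were called lower and 9 were not called, with 2 higher and 0 lower at an unadjusted p under 0.05. Over all genes 3.14% were called higher and 3.94% lower. Their median difference was 0.16 and ranged from -0.15 to 0.54. S100A13, which takes part in the release of growth factors without a signal peptide, was the called gene. It read 10.14 and 9.95 in knockout against 9.45 and 9.57 in wild type, a difference of 0.54 (SE 0.11, adjusted p = 0.043). Its second probe set gave -0.17, the mean of both gave 0.18, and that mean was not called. The call also ended without the intensity trend. S100A1, a gene of heart and muscle that overlaps S100A13 on the chromosome, read 6.06 and 6.29 in knockout against 6.07 and 6.17 in wild type. Among these other 10 genes only S100A13 reached the median brightness of all genes (6.19), and S100B and S100Z were dim on all 4 arrays. Little could therefore be seen in the rest of the family.

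**Figure D2:**
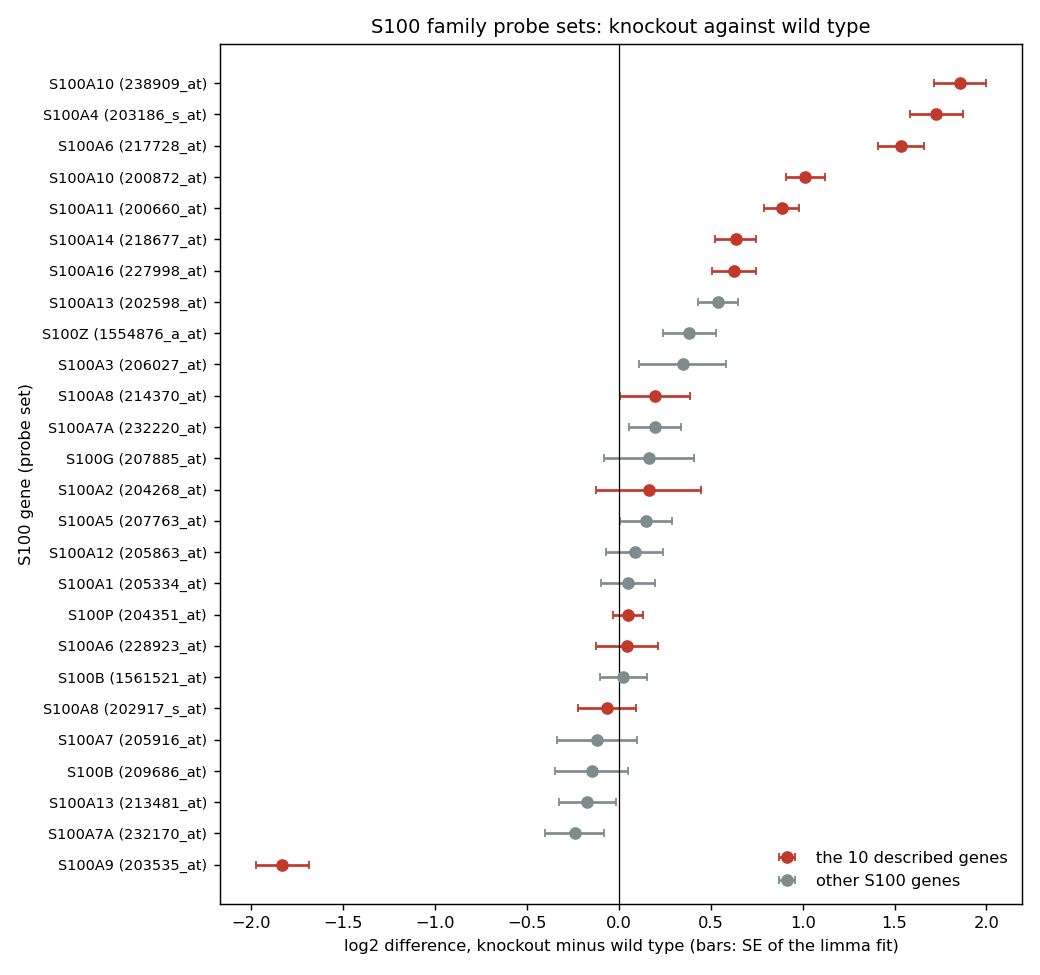
Log2 difference, knockout minus wild type, of every S100 probe set that was read, with limma's standard error as the bar, for the 10 described genes in red and the other S100 genes in grey. Differences run from -1.83 for S100A9 to 1.86 for the second S100A10 probe set, and the grey points lie between -0.24 and 0.54.

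The order of genes along chromosome 1 was used to see whether the neighbours of the S100 genes differed as well. Between S100A10 at one end and S100A1 at the other lay 29 measured genes that are not S100 genes, mostly of the epidermal differentiation complex. Limma called 0 of these, with 0 higher and 1 lower at an unadjusted p under 0.05, and their median was 0.05. Only 3 of the 29 reached the median brightness of all genes, and 11 were dim on all 4 arrays, so little could be seen there. S100A9, S100A12 and S100A8 follow each other in this order with differences of -1.83, 0.09 and -0.07. S100A6, S100A5 and S100A4 follow each other with 1.54, 0.15 and 1.73. S100A12, S100A8 and S100A5 also lay below the median brightness, with means of 3.87, 4.30 and 5.70 over the 4 arrays.

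On each side of the span the nearest 20 genes that reached the median brightness were taken. Of the 20 before it, from CERS2 to THEM4, 2 were called higher and 1 lower, with a median of 0.02. Among all 9888 genes of that brightness 5.24% were called higher and 6.86% lower. MLLT11 rose by 1.12 (adjusted p = 0.0042), TUFT1 rose by 0.66 (adjusted p = 0.019) and the annexin gene ANXA9 fell by 0.98 (adjusted p = 0.014) on the log2 scale, all by limma. Of the 20 after it, from CHTOP to IL6R, limma called 0, with 1 higher and 4 lower at an unadjusted p under 0.05 and a median of -0.06. Such brighter genes had a median of -0.04 across the genome. The nearest such neighbours read -0.63 (THEM4, adjusted p = 0.19) beside S100A10 and -0.06 (CHTOP, adjusted p = 0.85) beyond S100A1.

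**Figure D3:**
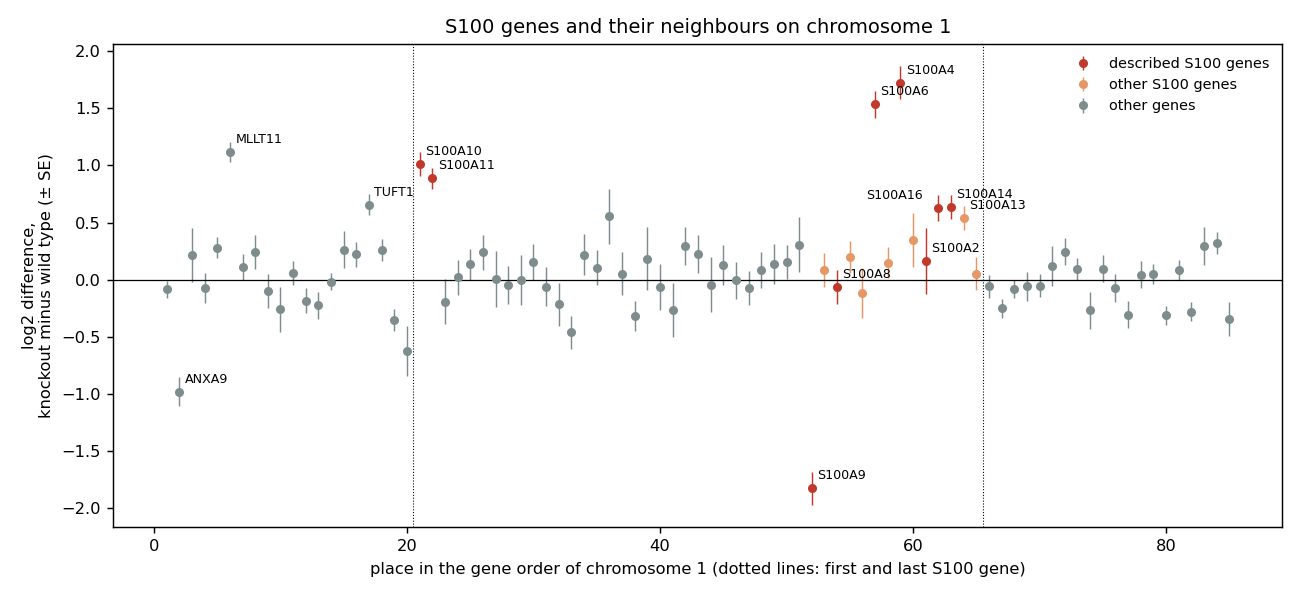
Log2 differences, knockout minus wild type, with SE, of S100 genes (red and orange) and other genes (grey) in their order on chromosome 1, with dotted lines at the first and last S100 gene. S100A4, S100A6, S100A10, S100A11, S100A14 and S100A16 lie between 0.63 and 1.73 and S100A9 at -1.83, among grey neighbours with medians of 0.02, 0.05 and -0.06 before, within and after the span.

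Most genes for proteins that S100 dimers are known to meet inside the cell were not called. The list also held ARG2, which has no sure role as an S100 partner and is among the 2 that fell. Of 17 measured genes of this list, 2 rose, 2 fell and 13 were not called, where 3.14% of all genes were called higher and 3.94% lower. The median of the list was 0.01, beside 0.01 over all genes. This list and those below were chosen with earlier results of these data known. Their counts and p-values are therefore a description. ANXA1 (annexin A1), the S100A11 partner, read 7.38 and 7.67 in knockout against 4.53 and 4.42 in wild type, a difference of 3.06 (SE 0.16, limma adjusted p = 0.0014), and a second, dim probe set gave -0.12. AHNAK, a giant scaffold protein that binds the S100A10 and annexin A2 complex, read 9.75 and 9.72 in knockout against 8.17 and 8.20 in wild type. Its difference was 1.55 (SE 0.09, limma adjusted p = 0.0020). Probe set 220016_at gave 1.17 (limma adjusted p = 0.012 over all probe sets) and 1563560_at gave 0.06. The mean of the 5 AHNAK probe sets gave 0.49, which was not called.

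ANXA2 itself, the main S100A10 partner, read 13.48 and 13.24 in knockout against 12.89 and 13.08 in wild type. Its difference of 0.37 (SE 0.12) did not pass (limma adjusted p = 0.14). SUGT1, a cochaperone that S100A6 can bind, fell by 0.55 (adjusted p = 0.027), and ARG2 (mitochondrial arginase), which was listed without a sure role as an S100 partner, fell by 1.03 (adjusted p = 0.011). Without probe sets that may match more than 1 transcript, both were no longer called. SUGT1 probe set 228045_at, which is not of that type, gave -0.55 with overlapping arrays. ARG2 probe set 203945_at, also not of that type, gave -0.62 without overlap. The S100A4 partner MYH9, the S100A6 partner CACYBP and the S100P partner EZR were not called.

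Of 12 measured genes for receptors and surface partners, 1 rose, 1 fell and 10 were not called, with a median of 0.10. The shares called over all genes were 3.14% higher and 3.94% lower. ALCAM, a cell adhesion molecule reported to bind S100 proteins, read 7.95 and 7.86 in knockout against 10.62 and 10.50 in wild type, a fall by 2.65 (SE 0.10, limma adjusted p = 7.0e-04). A second ALCAM probe set gave -2.83. EGFR, the epidermal growth factor receptor, rose by 0.92 (SE 0.10, adjusted p = 0.0087). Its probe set 224999_at gave 1.01 (limma adjusted p = 0.012 over all probe sets). The 9 EGFR probe sets ran from -0.34 to 1.01, and their mean gave 0.22 and was not called. AGER, which encodes RAGE, and TLR4, both receptors of calprotectin, were not called. Both read below the median brightness of all genes (6.19), with means of 5.84 and 4.54 over the 4 arrays.

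Of 20 measured transcription factor genes known to act at S100 genes, 3 rose, 2 fell and 15 were not called, with a median of 0.04. Over all genes 3.14% were called higher and 3.94% lower. KLF5, a factor of proliferating epithelium, rose by 1.45 (SE 0.09, limma adjusted p = 0.0020), the AP-1 subunit FOSL2 by 0.84 (adjusted p = 0.017) and the Wnt effector TCF7L2 by 0.62 (adjusted p = 0.0499). NFKB1 fell by 0.93 (adjusted p = 0.021). CEBPB, a C/EBP factor known to drive S100A8 and S100A9 in myeloid cells, read 11.03 and 11.14 in knockout against 11.69 and 11.66 in wild type. It fell by 0.59 (SE 0.08, adjusted p = 0.018). The C/EBP letters described above occurred in S100A9, but also in S100A6, S100A11 and S100A16, which were higher, and in S100A8 and S100P, which overlapped. Whether CEBPB binds at any of them was not tested. The KLF5 call ended without probe sets that may match more than 1 transcript, where its difference was 1.16. The TCF7L2 call ended there too, although its probe set 212761_at is not of that type. TCF7L2 probe sets 216511_s_at, 216035_x_at, 212759_s_at and 216037_x_at, which are of that type, gave 0.77, 0.70, 0.70 and 0.76. Limma called each of them over all probe sets, where 212761_at and 212762_s_at (0.83) were not called. Both the TCF7L2 and the CEBPB calls of the fit over genes ended without the intensity trend.

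**Figure D4:**
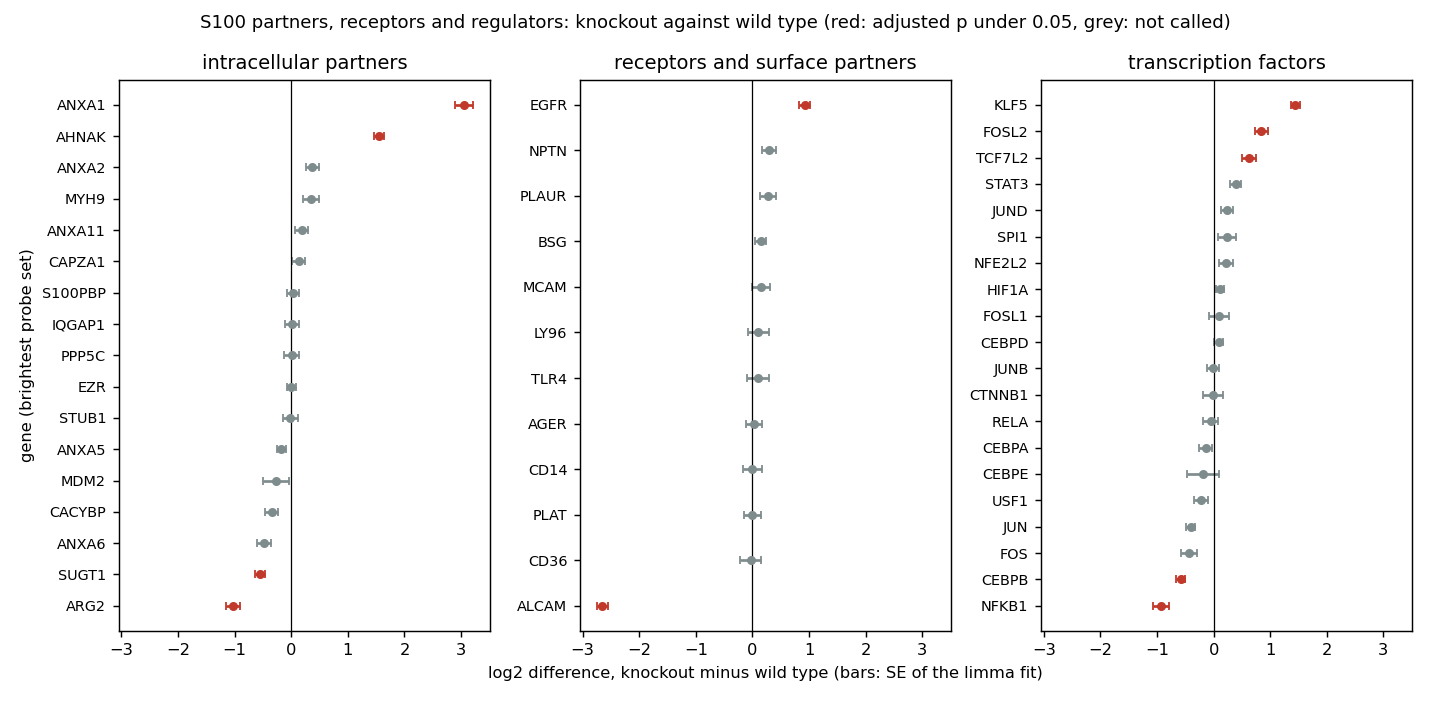
Log2 differences (knockout minus wild type, bars for the SE from limma) of genes for intracellular partners, receptors and transcription factors of the S100 proteins and genes, with those called at an adjusted p under 0.05 in red. ANXA1 at 3.06 and ALCAM at -2.65 lie farthest from 0, and most genes lie near it.

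With each array left out in turn, ANXA1 and ALCAM were called every time, at 2.91 to 3.20 and -2.71 to -2.60. AHNAK and KLF5 were called without either wild-type array and not without either knockout array. The calls on the other partner, receptor and factor genes named as having risen or fallen ended whichever of the 4 arrays was left out.

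S100A9 and S100A4 also mark other cell types, so markers of those cells were read beside them. Of 10 granulocyte and monocyte markers, 0 were called higher, 1 was called lower by limma and 9 were not called, with 1 higher and 1 lower at an unadjusted p under 0.05. Their log2 values summed to 54.2 to 54.4 in knockout and 54.3 to 55.5 in wild type. LYZ (lysozyme), the called marker, read 8.95 and 9.75 in knockout against 11.27 and 10.59 in wild type, a fall by 1.58 (SE 0.32, adjusted p = 0.049). That call ended without the intensity trend and with each array centred on its median. A second LYZ probe set read 7.81 and 7.96 in knockout against 10.01 and 9.80 in wild type, a fall by 2.02 (SE 0.12, limma adjusted p = 0.0029 over all probe sets). AIF1 was the marker higher at an unadjusted p under 0.05, by 0.52, and was not called (limma adjusted p = 0.16). Its probe sets 209901_x_at, 213095_x_at and 207823_s_at gave 0.55, 0.47 and -0.15. In all, 6 of the 10 markers read higher in knockout and 4 lower. PTPRC, ITGAM, FCN1, MPO, ELANE and SPI1 read below the median brightness of all genes (6.19), so little could be seen in them. The part of these markers in the S100A9 difference was not tested. Of 9 fibroblast and stellate markers limma called 0, also 0 at an unadjusted p under 0.05, with sums of 45.1 to 45.2 in knockout and 42.9 to 44.5 in wild type. The brightest, COL1A1, read 7.15 and 7.14 in knockout against 6.86 and 7.17 in wild type, but the mean of its probe sets gave 0.55 and was called.

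Of 4 measured keratinocyte and squamous markers limma called 0, with 1 higher at an unadjusted p under 0.05. The brightest, DSG3, read 5.89 and 5.59 in knockout against 5.07 and 5.18 in wild type (limma adjusted p = 0.099), and the mean of its probe sets gave 0.78 and was called. Of 10 genes listed as hepatocyte markers, which include AFP and GPC3, 2 rose, 2 fell and 6 were not called. APOH rose by 0.76 and GPC3 by 0.39, and FGB fell by 0.63 and SERPINA1 by 0.49 on the log2 scale. In the fit over genes, the calls on GPC3, FGB and SERPINA1 ended without the intensity trend. APOA2 was not called there at -0.59, but its probe set 219465_at gave -0.81 and was called over all probe sets. FGB probe set 216238_s_at (-0.56) and SERPINA1 probe set 230318_at (-0.96) were also called over all probe sets. A dim SERPINA1 probe set, 211428_at, gave 0.04. The log2 values of the 10 genes gave sums of 126.5 to 126.6 in knockout and 126.7 to 127.4 in wild type.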

How the data were processed

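Expression was measured with Affymetrix U133 Plus 2.0 arrays, 2 of knockout and 2 of wild-type HuH7 cells, grouped by sample title. The deposited values are log2 expression values that the authors made with RMA and affy, per the submitters' processing notes (no version is named there). RMA equalises array distributions, so a shift shared by most genes would be removed, and no detection calls were used. The platform annotation gave 1 gene symbol for 41091 of 54613 probe sets, several for 1801 and no symbol for 11721, and only the first kind was named. Dim means below the 25th percentile of an array.

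Knockout was compared with wild type by limma 3.58.1 in R 4.3.3 (eBayes with an intensity trend, two-sided, Benjamini-Hochberg), over all probe sets and over 19775 genes read by their brightest probe set, with a threshold of 0.05. There were 2 residual degrees of freedom and 3.89 from the prior for probe sets (3.62 for genes). The number of arrays limits the precision, and an exact permutation test of 2 against 2 cannot go below p = 0.333. The steps were tested on simulated data. Gene order and the 14 promoter entries of the 10 S100 genes came from RefSeq (GRCh38.p14), and figures from matplotlib 3.10.9.

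The S100 genes and all lists were chosen with earlier results of these data known. Named were all 10 S100 genes, the called and the brightest genes of each list (at most 3 in each direction), the nearest and the called neighbours and the called and brightest markers. Partners named as not called were picked afterwards.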

Additional observations from a re-analysis of the deposited data

How the results depend on the processing

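The 1587 called probe sets, the 7 called S100 probe sets and the 1399 called genes became 641, 4 and 783 without the intensity trend. At an adjusted p under 0.10 they were 2954, 8 and 2236, and without probe sets that may match more than 1 transcript 803, 5 and 826. Leaving out 1 array gave 0 to 82 probe sets, 0 S100 probe sets each time and 37 to 192 genes by limma, with 4670 to 7136 probe sets at an unadjusted p under 0.05 and the lone array assumed to vary like the other group. The titles number the arrays of both groups alike, but the replicate differences of the groups correlated at -0.50 across probe sets, so the numbers were not taken as pairs. The replicate block left 77 probe sets, 0 S100 probe sets and 175 genes. In that fit 8 of the 13 S100 probe sets, chosen on this contrast, had an unadjusted limma p under 0.05, beside 8.72% of all probe sets. The crossed pairing, added after seeing this, gave 4349, 8 and 3662. For these changes the cause was not tested, beyond the fewer samples or features in the fit. Robust variances, the filter on low values, repeated quantile normalization, median centring and the mean over probe sets kept the counts within 1.5 times, with 6 to 8 S100 probe sets where probe sets were tested. Repeated quantile normalization turned the share of higher calls to 51.0% of genes, against 44.3%. In no alternative did a called S100 probe set change sign. S100A2, S100A8 and the dim S100A6 probe set, which were not called, changed sign in 1 or 2 alternatives each.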

Other observations

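Genes related to the S100 family by structure or place were also read. The fused-type S100 genes, such as FLG (filaggrin) and TCHH (trichohyalin), join an S100 domain to long repeats and belong to the skin barrier. Of 5 measured, limma called 0, also 0 at an unadjusted p under 0.05, and 4 were dim on all 4 arrays. Among 16 measured genes of the epidermal differentiation complex, such as IVL (involucrin), limma called 0 as well, with 0 at an unadjusted p under 0.05, a median of 0.13 and differences of -0.27 to 0.55.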
